A study of Mus musculus with 70 samples.

Results

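The genes described here are 32 mouse genes of the glucocorticoid response: the 2 receptors for the hormone, the enzyme that regenerates it inside cells, and 29 genes that glucocorticoids are known to regulate in brain or other tissues. They were taken by symbol from a list and matched to the gene identifiers of the count files, and all 32 had a line among the 38293 gene lines. Cortex and striatum RNA of mice was sequenced in 5 conditions, with 7 libraries deposited for each of the 10 combinations of tissue and condition. MctOatp KO is the double knockout in which Slco1c1, the gene of the thyroxine transporter OATP1C1, is missing, and WTa stands for the wild-type mice labelled as its controls. MMI denotes wild-type mice made hypothyroid by giving the dams 0.02% methimazole, which blocks thyroid hormone synthesis, with 1% potassium perchlorate, which blocks iodide uptake, between embryonic day 9 and postnatal day 21. MctDio KO is the double knockout in which Dio2, whose enzyme turns T4 into active T3, is missing. WT stands for the untreated wild-type mice that served as controls for both MMI and MctDio KO. The knockout and hypothyroid mice were 21 to 23 days old, and the hypothyroid mice were males of strain C57BL/6J. No source used here gives the age of WTa and WT or the sex outside the MMI group.

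Glucocorticoids, chiefly corticosterone in mice, cross into the brain and bind the mineralocorticoid receptor at low levels of hormone and the glucocorticoid receptor at higher ones, as in stress or at the daily peak. The receptor, held in the cytoplasm by heat-shock proteins and their co-chaperones, then moves to the nucleus, where it binds paired half-sites in DNA and raises a set of genes that includes its own brake, Fkbp5. Thyroid state and the adrenal axis are coupled, and several genes of the set are also known to respond to fasting, the time of day or thyroid hormone. Level changes in RNA from whole tissue can come from fewer cells of a type as well as from less RNA per cell, and these cannot be told apart here.

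The promoters of the set were searched for the element that the receptor binds. RefSeq promoters (build GRCm38.p6, 250 bases before to 50 after each start) were found for 27 of the 32 genes, and the 5 without an entry were Nr3c1, Sgk3, Zbtb16, Cebpd and Xdh. Both strands were searched for the half-site AGAACA, which reads TGTTCT on the other strand, and for the full palindrome of AGAACA, 3 free bases and TGTTCT, whose arms also count as half-sites. Of all 32851 promoters in the table, 3 hold the full palindrome (0.00913%), and 1 of these 3 belongs to Sgk1. A half-site is common, in 19.0% of all promoters, and was present in 8 of the 45 promoters of the set (17.8%), from the 5 genes Sgk1, Sult1a1, Fam107a, Bcl6 and Tsc22d3, so half-sites were no more frequent in the set than in promoters at large. The promoter of Sgk1 with the full palindrome is shown with those of Tsc22d3 and Sult1a1, which hold half-sites, and of Fkbp5, the gene with one of the clearest changes in the set, whose window holds no match. Capitals mark the half-sites, each promoter is read on its gene's strand, and the positions are chr10:21993640-21993939 (+) for Sgk1, chrX:140600473-140600772 (-) for Tsc22d3, chr7:126676369-126676668 (-) for Sult1a1 and chr17:28486100-28486399 (-) for Fkbp5.
Sgk1: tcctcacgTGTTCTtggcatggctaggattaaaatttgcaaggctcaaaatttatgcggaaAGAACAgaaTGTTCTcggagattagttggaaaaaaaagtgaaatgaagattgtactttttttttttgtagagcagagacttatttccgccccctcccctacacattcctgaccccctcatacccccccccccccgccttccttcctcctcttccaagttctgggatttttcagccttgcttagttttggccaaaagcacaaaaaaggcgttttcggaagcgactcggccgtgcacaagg
Tsc22d3: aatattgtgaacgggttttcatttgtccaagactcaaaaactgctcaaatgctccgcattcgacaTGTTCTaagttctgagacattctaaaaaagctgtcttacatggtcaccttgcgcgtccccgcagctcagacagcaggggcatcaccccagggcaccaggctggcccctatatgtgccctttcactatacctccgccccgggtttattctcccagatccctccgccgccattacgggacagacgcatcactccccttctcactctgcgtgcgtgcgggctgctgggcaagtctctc
Sult1a1: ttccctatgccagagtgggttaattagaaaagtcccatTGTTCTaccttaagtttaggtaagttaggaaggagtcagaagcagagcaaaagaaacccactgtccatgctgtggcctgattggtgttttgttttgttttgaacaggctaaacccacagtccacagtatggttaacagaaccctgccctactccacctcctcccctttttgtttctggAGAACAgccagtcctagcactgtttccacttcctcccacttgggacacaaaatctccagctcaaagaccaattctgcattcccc
Fkbp5: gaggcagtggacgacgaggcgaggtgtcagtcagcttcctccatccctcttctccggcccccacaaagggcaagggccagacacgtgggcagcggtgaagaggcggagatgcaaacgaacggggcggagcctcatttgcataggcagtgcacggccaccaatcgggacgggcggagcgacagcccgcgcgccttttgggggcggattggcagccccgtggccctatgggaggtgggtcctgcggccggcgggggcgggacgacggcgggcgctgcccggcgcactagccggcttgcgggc
The Sgk1 window has the palindrome starting 189 bases before its start site and another half-site starting 242 bases before it. It is 1 of 6 starts listed for the gene, and the counts do not tell which start was used.

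The libraries held 7802957 to 22485839 counts on genes. Of the 70 libraries, 3 were left out of every main comparison. The libraries labelled cortex and striatum MctOatp KO 7 each lay with the other tissue, at 0.942 and -0.0733 on a scale over 208 tissue genes where the kept cortex libraries ran from -0.134 to 0.0986 and the kept striatum libraries from 0.814 to 1.09. Non-unique alignments made up 39.7% in cortex MctOatp KO 1 and 27.8% to 30.5% in the cortex libraries kept. This left 5 libraries of cortex MctOatp KO, 6 of striatum MctOatp KO and 7 of each other group. The knockout labels were checked on Dio2, at 6.27 ± 1.21 CPM in MctDio KO cortex and 178 ± 20.9 CPM in WT cortex (CPM, counts scaled to library size, mean ± SD, n = 7 each), and on Slco1c1, at 45.8 ± 6.22 CPM in MctOatp KO cortex (n = 5) and 86.1 ± 8.26 CPM in WTa cortex (n = 7). Of the 32 genes, 31 passed the filter on low counts in both tissues, and Lcn2, an iron-carrier-binding protein raised in inflammation, did not, with no library above 0.563 CPM.

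A gene is called below when its adjusted p in edgeR's quasi-likelihood test, with Benjamini-Hochberg adjustment over all genes tested in the tissue, is under 0.05. In cortex of MctOatp KO against WTa, 18 of the 31 tested genes were called, 2 higher and 16 lower, while 21.7% of all tested genes were called (10.1% higher, 11.6% lower). The median log2 change of the 31 genes was -0.39 there, against 0.01 over all genes. In cortex of WTa against WT, 13 were called, 11 higher and 2 lower, while 6.71% of all tested genes were called (2.88% higher, 3.83% lower), and the median was 0.17 against 0.00 over all genes. In cortex of MMI against WT, 17 were called, 9 higher and 8 lower, beside 40% of all tested genes (19.9% higher, 20% lower), with a median of 0.07 against 0.01. In cortex of MctDio KO against WT, 11 were called, 8 higher and 3 lower, beside 22.9% of all tested genes (11.1% higher, 11.8% lower), with a median of 0.14 against 0.01.

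In striatum the total of called genes was equal or higher in each of these 4 comparisons. For MctOatp KO against WTa, 20 were called, 2 higher and 18 lower, beside 25.1% of all tested genes (12.1% higher, 13% lower), with a median log2 change of -0.39 against 0.01 over all genes. For WTa against WT, 14 were called, 12 higher and 2 lower, beside 11% of all tested genes (5.2% higher, 5.84% lower), with a median of 0.18 against -0.00. For MMI against WT, 17 were called, 10 higher and 7 lower, beside 38.7% of all tested genes (19% higher, 19.7% lower), with a median of 0.12 against 0.01. For MctDio KO against WT, 16 were called, 12 higher and 4 lower, beside 21.6% of all tested genes (10.5% higher, 11.1% lower), with a median of 0.24 against 0.01. MMI, MctDio KO and WTa were each set against the same WT libraries, and WTa is also the control of MctOatp KO, so these comparisons are not independent of each other. With all 70 libraries as labelled, MctOatp KO against WTa gave 11 called genes in cortex, 1 higher and 10 lower, beside 12.8% of all tested genes (6.99% higher, 5.85% lower), and 17 in striatum, 3 higher and 14 lower, beside 21.9% (11.2% higher, 10.7% lower). All 11 in cortex and 16 of the 17 in striatum were among those called without the 3 libraries, in the same direction. As labelled, WTa against WT gave 6 in cortex, beside 0.994% of all tested genes, and 14 in striatum, beside 6.43%. Neither WTa nor WT holds any of the 3 libraries, but each fit shares the spread between libraries over all its groups. As a common coefficient of variation it was 0.0864 in cortex without the 3 libraries and 0.169 as labelled. In striatum it was 0.097 and 0.133.

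**Figure D1:**
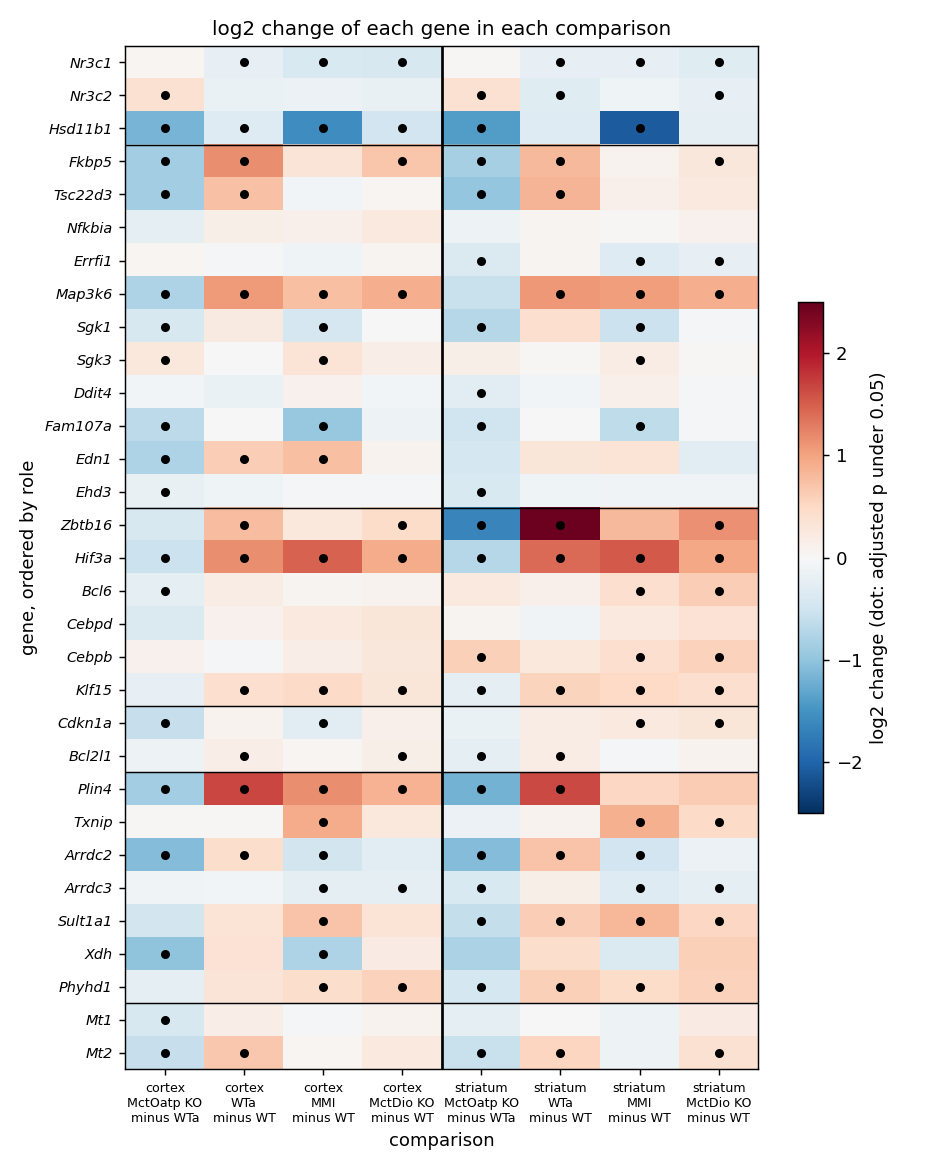
Each row is 1 of the 31 tested genes, grouped by role, and each column a comparison, cortex left and striatum right of the heavy line. Colour gives the log2 change and a dot marks an adjusted p under 0.05. The column of MctOatp KO against WTa is mostly blue with 16 (cortex) and 18 (striatum) lower calls, and the column of WTa against WT is mostly red with 11 and 12 higher calls.

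Nr3c1 encodes the glucocorticoid receptor. Its levels in cortex were 98.2, 105, 113, 114 and 116 CPM in the MctOatp KO libraries. They ran from 92.1 through a median of 107 to 119 CPM in WTa, from 86.2 through 96.7 to 101 CPM in MMI, from 74.5 through 92.0 to 104 CPM in MctDio KO and from 102 through 125 to 137 CPM in WT. All 7 MMI libraries lay under every WT library, while MctDio KO overlapped WT at its top. The log2 change was -0.38 ± 0.07 in MMI (SE, adjusted p = 1.55e-05) and -0.40 ± 0.07 in MctDio KO (adjusted p = 1.49e-05). In striatum it fell by 0.21 on the log2 scale in MMI (adjusted p = 0.00231) and by 0.31 in MctDio KO (adjusted p = 5.13e-05). The change in MctOatp KO against WTa was 0.05 in cortex and 0.02 in striatum, with adjusted p of 0.682 and 0.813. WTa itself was lower than WT, by -0.21 in cortex (adjusted p = 0.0491) and -0.20 in striatum (adjusted p = 0.0172). The cortex call of WTa was lost on leaving out any of 10 of the 14 libraries compared, with an adjusted p of up to 0.12.

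Nr3c2 encodes the mineralocorticoid receptor, which binds corticosterone more tightly than Nr3c1 does. In cortex the MctOatp KO libraries stood at 33.8, 36.6, 39.8, 41.9 and 47.1 CPM, above every WTa library, which ran from 29.9 through a median of 30.1 to 33.2 CPM. In striatum MctOatp KO ran from 43.1 through 52.6 to 55.5 CPM and WTa from 36.2 through 37.6 to 45.0 CPM, with a small overlap. The log2 change in MctOatp KO was 0.39 ± 0.10 in cortex (adjusted p = 0.00392) and 0.37 ± 0.07 in striatum (adjusted p = 9.72e-05). With all libraries as labelled the cortex value was 0.32, with an adjusted p of 0.0508. The WT libraries ran from 29.3 to 47.9 CPM in cortex and from 41.4 to 55.5 CPM in striatum, and MctOatp KO set against WT gave 0.22 and 0.07, with adjusted p of 0.108 and 0.525. WTa itself was called lower than WT in striatum, with means of 39.8 and 49.3 CPM, and was not called in cortex. Nr3c2 in MctDio KO was lower than in WT in striatum (-0.20, adjusted p = 0.0269, lost on leaving out any of 6 of 14 libraries, up to 0.0809), and its MMI changes of -0.15 in cortex and -0.11 in striatum were not called. A noncoding transcript, Gm10649, overlaps Nr3c2 on the other strand, and the kit did not keep strand, so their reads cannot be separated where they overlap.

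Hsd11b1 encodes the enzyme that makes active glucocorticoid from its inert keto form inside cells, and it had the largest fall of the set over these comparisons. In cortex its levels were 9.17, 9.31, 9.402, 10.1 and 10.9 CPM in MctOatp KO libraries. The same gene ran from 20.0 through 22.1 to 24.02 CPM in WTa, from 7.59 through 9.63 to 10.9 CPM in MMI, from 15.8 through 19.7 to 25.2 CPM in MctDio KO and from 25.2 through 26.4 to 32.6 CPM in WT. MctOatp KO and MMI lay well under their controls with no overlap, and MctDio KO lay between, with its highest library at the lowest WT one. WTa itself was lower than WT in cortex (-0.33, adjusted p = 0.007, without overlap). The log2 changes in cortex were -1.16 ± 0.09 in MctOatp KO (adjusted p = 1.77e-12), -1.55 ± 0.08 in MMI (adjusted p = 3.69e-18) and -0.48 ± 0.08 in MctDio KO (adjusted p = 1.09e-05).

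In striatum, where its level was lower, Hsd11b1 ran from 3.14 through 3.62 to 5.04 CPM in MctOatp KO and from 7.47 through 9.97 to 13.1 CPM in WTa. It ran from 1.80 through 3.36 to 3.60 CPM in MMI, from 8.69 through 9.90 to 15.7 CPM in MctDio KO and from 10.5 through 12.7 to 14.0 CPM in WT. The log2 changes were -1.39 ± 0.15 in MctOatp KO (adjusted p = 2.4e-09) and -2.07 ± 0.14 in MMI (adjusted p = 4.51e-15), again without overlap. The change in MctDio KO was -0.22 (adjusted p = 0.208), and it was -0.34 (adjusted p = 0.0232) without MctDio KO 1, whose 15.7 CPM was the highest of its group. MctDio KO differed from MMI by 1.07 in cortex (adjusted p = 4e-12) and by 1.85 in striatum (adjusted p = 1.85e-12). Against MctDio KO's own change, that of MctOatp KO was lower by -0.68 in cortex and -1.17 in striatum, with adjusted p of 0.000874 and 0.000229. The fall in MMI was deeper in striatum than in cortex, by -0.53 ± 0.16 (adjusted p = 0.0254, 67 libraries fitted together).

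**Figure D2:**
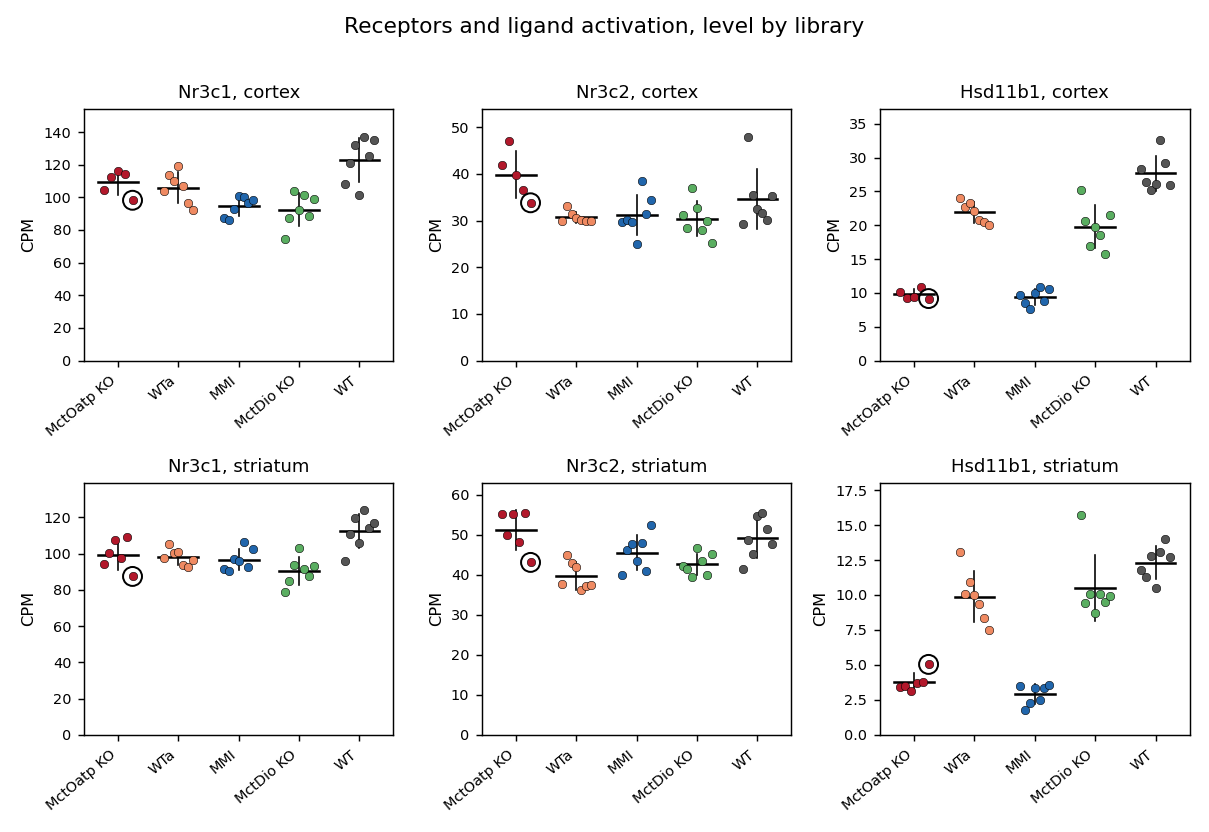
Levels of Nr3c1, Nr3c2 and Hsd11b1 in CPM, cortex above and striatum below, for MctOatp KO, WTa, MMI, MctDio KO and WT. Each point is a library, the horizontal line the mean, the vertical line 1 SD, and the ring marks MctOatp KO 6. Hsd11b1 in cortex stays at or under 10.9 CPM in every MctOatp KO and MMI library and at or above 15.8 CPM in every other one.

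Fkbp5 encodes the co-chaperone FKBP51, which lowers the receptor's affinity for hormone and is itself induced by the receptor. In cortex the MctOatp KO libraries stood at 25.4, 28.7, 28.9, 34.6 and 59.9 CPM. WTa ran from 51.1 through a median of 65.4 to 78.9 CPM, MMI from 30.1 through 36.3 to 43.8 CPM, MctDio KO from 28.6 through 48.6 to 58.5 CPM and WT from 21.3 through 31.1 to 34.2 CPM. WTa stood above all WT libraries with no overlap, and 4 of the 5 MctOatp KO libraries lay within or next to the WT range. The remaining one, MctOatp KO 6, lay inside the WTa range. Fkbp5 was higher in WTa than in WT by 1.17 ± 0.16 (adjusted p = 6.63e-05), and lower in MctOatp KO than in WTa by -0.86 ± 0.17 (adjusted p = 0.000517). It was also higher in MctDio KO than in WT, by 0.69 ± 0.16 (adjusted p = 0.00221), and its change in MMI was 0.33 (adjusted p = 0.115).

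In striatum WTa again stood highest. Fkbp5 ran from 44.0 through 46.7 to 70.1 CPM in MctOatp KO, from 74.8 through 87.0 to 101 CPM in WTa, from 46.3 through 53.6 to 59.5 CPM in MMI, from 40.2 through 64.8 to 74.0 CPM in MctDio KO and from 44.6 through 49.9 to 58.6 CPM in WT. WTa overlapped neither MctOatp KO nor WT. The log2 change was 0.81 ± 0.10 for WTa against WT (adjusted p = 4.7e-06) and -0.82 ± 0.11 for MctOatp KO against WTa (adjusted p = 5.68e-07). Set against WT in place of WTa, an alternative chosen after seeing the data, MctOatp KO gave 0.31 in cortex and -0.01 in striatum, with adjusted p of 0.234 and 0.963. The MctDio KO change of 0.28 in striatum (adjusted p = 0.0465) was lost on leaving out any of 10 of 14 libraries, with adjusted p of up to 0.111.

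Tsc22d3 encodes GILZ, a leucine-zipper protein through which glucocorticoids dampen inflammatory signalling. In cortex it stood at 50.6, 65.8, 74.9, 82.2 and 83.5 CPM in MctOatp KO and ran from 110.6 through 129.7 to 169.9 CPM in WTa, from 62.0 through 75.1 to 93.2 CPM in MMI, from 60.7 through 83.0 to 94.9 CPM in MctDio KO and from 65.2 through 77.8 to 94.7 CPM in WT. WTa stood alone, above every other kept library in the tissue. In striatum WTa ran from 123 through 142 to 178 CPM, and no kept library of MctOatp KO, MMI, MctDio KO or WT exceeded 109.9 CPM. The log2 change of WTa against WT was 0.74 ± 0.11 in cortex (adjusted p = 0.000144) and 0.84 ± 0.10 in striatum (adjusted p = 1.36e-06). MctOatp KO against WTa gave -0.87 ± 0.12 in cortex (adjusted p = 3.35e-06) and -0.97 ± 0.10 in striatum (adjusted p = 8.27e-09). No change was called in MMI or MctDio KO, where values ran from -0.06 to 0.24 over both tissues, and MctDio KO in striatum reached the call without MctDio KO 4 (0.31, adjusted p = 0.0127).

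**Figure D3:**
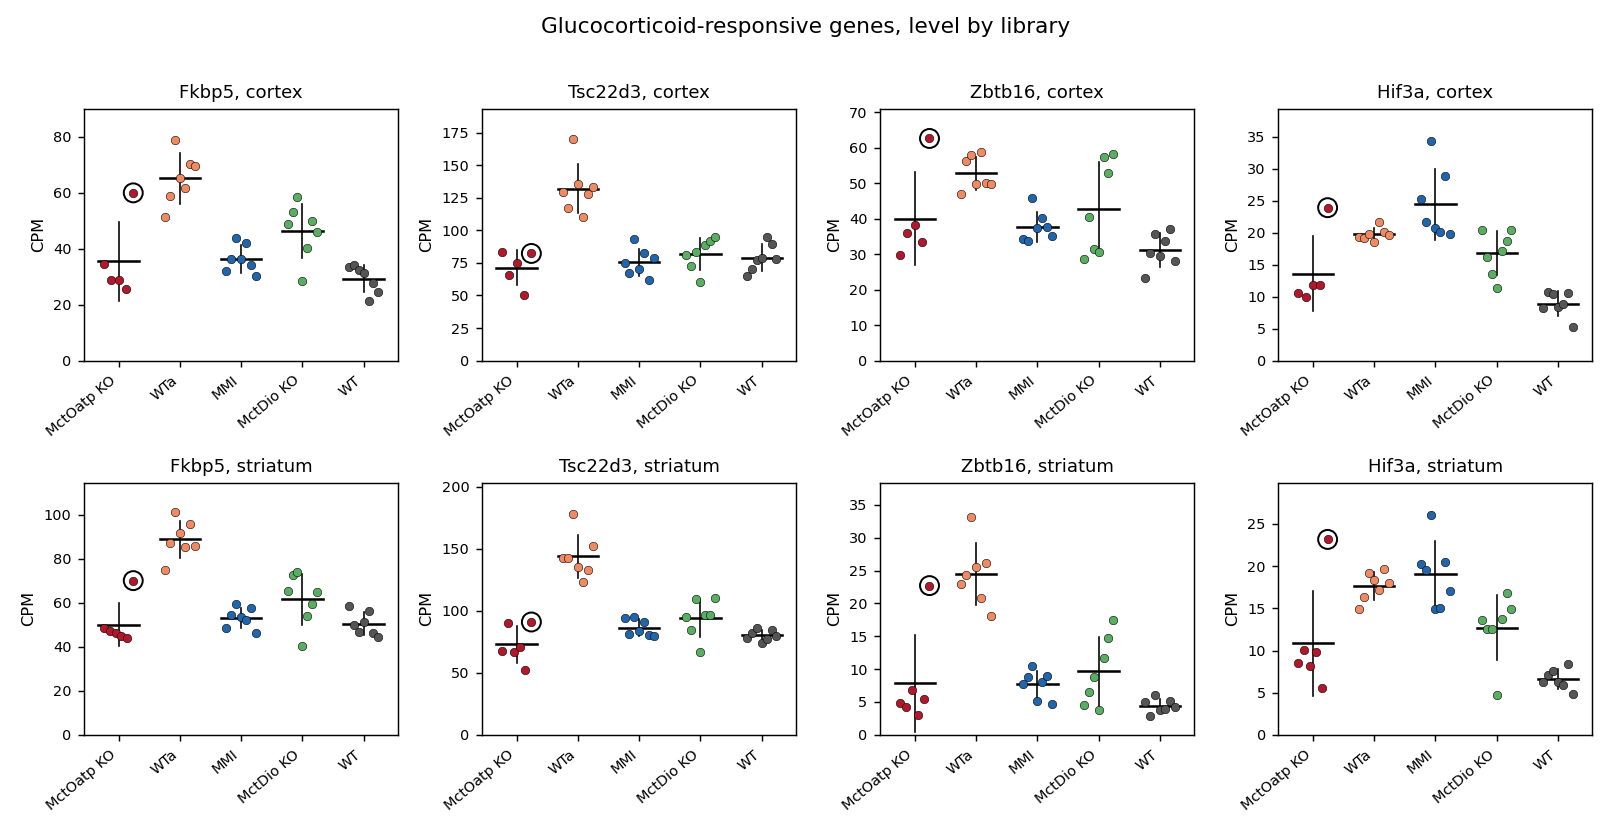
Levels in CPM of Fkbp5, Tsc22d3, Zbtb16 and Hif3a, cortex above and striatum below, in the 5 conditions. Points are libraries, lines the mean and 1 SD, and rings MctOatp KO 6. WTa lies above WT without overlap in all 8 panels, and the ringed library is the highest of its group in 7 of them.

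Sgk1, a kinase that glucocorticoids and mineralocorticoids induce and that acts on ion channels, shared only part of the pattern of Fkbp5. Like Fkbp5, Sgk1 was lower in MctOatp KO than in WTa, and unlike Fkbp5 it fell in MMI. In cortex it stood at 53.8, 54.7, 58.0, 67.8 and 70.2 CPM in MctOatp KO and ran from 62.6 through 78.3 to 114 CPM in WTa, from 45.8 through 52.2 to 55.2 CPM in MMI, from 59.2 through 67.7 to 78.7 CPM in MctDio KO and from 56.4 through 70.5 to 77.0 CPM in WT. All MMI libraries lay under all WT libraries, and in striatum too, where MMI ran from 78.9 through 88.9 to 96.9 CPM and WT from 105 through 131 to 152 CPM. Sgk1 fell in MMI by 0.42 on the log2 scale in cortex (adjusted p = 0.000296) and by 0.53 in striatum (adjusted p = 0.00824). It was lower in MctOatp KO than in WTa by -0.40 ± 0.10 in cortex (adjusted p = 0.00298) and by -0.71 ± 0.17 in striatum (adjusted p = 0.00173), and with all libraries as labelled the cortex value was -0.17 (adjusted p = 0.366). The striatum WTa libraries were wide, from 97.3 through 157 to 298 CPM, with WTa 3 far above the others, and MctOatp KO there ran from 77.7 through 94.7 to 144 CPM and MctDio KO from 105 through 120.3 to 159.6 CPM. Against WT, MctOatp KO gave -0.17 in cortex and -0.30 in striatum, with adjusted p of 0.214 and 0.194, and MctDio KO gave -0.00 and -0.03, with adjusted p of 0.99 and 0.935. Beside the full palindrome in its promoter, shown above, Sgk1 had WTa against WT changes of 0.22 in cortex and 0.42 in striatum, with adjusted p of 0.133 and 0.0856. The striatum value was called without WTa 5 (0.52, adjusted p = 0.0207).

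Map3k6, a stress-activated kinase, was low but higher in 3 groups than in WT. The cortex level of Map3k6 was 1.89, 2.20, 2.37, 3.15 and 5.66 CPM in MctOatp KO and ran from 4.27 through 4.75 to 7.47 CPM in WTa, from 3.51 through 3.89 to 5.78 CPM in MMI, from 3.39 through 4.58 to 6.47 CPM in MctDio KO and from 1.84 through 2.51 to 3.16 CPM in WT. WTa, MMI and MctDio KO each lay above WT with no overlap. The log2 changes in cortex were 1.06 ± 0.19 in WTa, 0.74 ± 0.19 in MMI and 0.90 ± 0.19 in MctDio KO against WT, with adjusted p of 0.000498, 0.00174 and 0.000443. In striatum, where WT ran from 1.502 through 1.67 to 2.79 CPM, they were 1.08, 1.05 and 0.91, with adjusted p of 0.00138, 0.000169 and 0.00229. There the levels ran from 1.34 through 2.505 to 4.76 CPM in MctOatp KO, from 2.57 through 3.74 to 6.02 CPM in WTa, from 2.88 through 3.66 to 4.52 CPM in MMI and from 2.0 through 3.32 to 5.28 CPM in MctDio KO. MctOatp KO against WTa gave -0.78 in cortex (adjusted p = 0.00328) and -0.56 in striatum (adjusted p = 0.0644), and the striatum value was called without MctOatp KO 6 (-0.79, adjusted p = 0.00758) and without WTa 5 (-0.64, adjusted p = 0.036).

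Fam107a, an actin-binding protein of astrocytes and neurons that stress and glucocorticoids raise, fell in 2 of the 3 models. The cortex level of Fam107a was 376, 384, 388, 419 and 524 CPM in MctOatp KO and ran from 582 through 670.5 to 707 CPM in WTa, from 262 through 367 to 424 CPM in MMI, from 503 through 619 to 694 CPM in MctDio KO and from 559 through 671 to 769.8 CPM in WT. MctOatp KO and MMI lay under their controls without overlap, and WTa did not stand above WT. The log2 change was -0.65 ± 0.10 in MctOatp KO (adjusted p = 6.05e-06), -0.95 ± 0.09 in MMI (adjusted p = 2.09e-10) and -0.13 in MctDio KO (adjusted p = 0.298). In striatum the levels ran from 298 through 337 to 485 CPM in MctOatp KO, from 444 through 499 to 551 CPM in WTa, from 281 through 322 to 349.5 CPM in MMI, from 409.6 through 483 to 593 CPM in MctDio KO and from 449 through 492.6 to 538 CPM in WT. The changes there were -0.49 ± 0.08 in MctOatp KO (adjusted p = 1.97e-05), -0.63 ± 0.08 in MMI (adjusted p = 3.91e-08) and -0.05 in MctDio KO (adjusted p = 0.7). MctDio KO differed from MMI by 0.81 in cortex and 0.58 in striatum, with adjusted p of 6.62e-08 and 2.05e-06.

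Ehd3, a protein of endosome recycling, was called lower in MctOatp KO and was not called in MMI or MctDio KO. In striatum it ran from 49.1 through 55.5 to 66.2 CPM in MctOatp KO, from 65.0 through 77.3 to 81.5 CPM in WTa, from 71.2 through 74.3 to 78.1 CPM in MMI, from 65.3 through 75.2 to 80.2 CPM in MctDio KO and from 73.0 through 80.8 to 86.4 CPM in WT. In cortex it stood at 77.8, 85.7, 89.7, 100.2 and 103 CPM in MctOatp KO, against 97.9 through 104 to 114 CPM in WTa, and the other groups ran from 96.4 to 120.2 CPM. The log2 change of MctOatp KO was -0.39 ± 0.06 in striatum (adjusted p = 1.09e-05) and -0.19 ± 0.06 in cortex (adjusted p = 0.0121), and the cortex call was lost without MctOatp KO 5 (-0.14, adjusted p = 0.0941). With all libraries as labelled it was called in neither tissue (-0.18 with adjusted p = 0.291 in striatum, -0.41 with adjusted p = 0.0761 in cortex). The change in MctOatp KO was lower than that in MctDio KO by -0.29 in striatum (adjusted p = 0.0482) and by -0.16 in cortex (adjusted p = 0.358), and lower than that in MMI by -0.30 in striatum (adjusted p = 0.0268).

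Of the 5 remaining genes of feedback and signalling, Errfi1, a brake on growth-factor receptors, fell in striatum in all 3 models, by 0.36 in MctOatp KO, 0.32 in MMI and 0.20 in MctDio KO on the log2 scale, with adjusted p of 1.87e-05, 1.96e-05 and 0.00979. It was called in no cortex comparison of a model with its control. Sgk3, a relative of Sgk1, rose in MMI by 0.35 in cortex and 0.19 in striatum and in MctOatp KO by 0.27 in cortex, with adjusted p of 3.18e-05, 0.00918 and 0.00434. Edn1, the vasoconstrictor endothelin, had a median of 2.10 CPM in MctOatp KO cortex and 3.78 CPM in WTa cortex, without overlap (-0.76, adjusted p = 0.00522), a call lost as labelled (-0.51, adjusted p = 0.0937). It rose in MMI cortex by 0.75 (adjusted p = 0.00109). It was also higher in WTa than in WT cortex (0.61, adjusted p = 0.0389), a call lost on leaving out any of 9 of 14 libraries, with adjusted p of up to 0.102. Ddit4, an inhibitor of the growth kinase mTORC1, was called once, lower in MctOatp KO striatum (-0.26, adjusted p = 0.0346), and that was lost on leaving out any of 7 of 13 libraries, with adjusted p of up to 0.13. Nfkbia, the inhibitor of NF-kappaB, was not called in any of the 8 comparisons, with log2 changes from -0.25 to 0.24.

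Zbtb16 encodes PLZF, a transcriptional repressor that glucocorticoids induce strongly in several human cell types. In striatum it ran from 2.97 through 5.11 to 22.7 CPM in MctOatp KO, from 18.1 through 24.4 to 33.2 CPM in WTa, from 4.73 through 8.07 to 10.6 CPM in MMI, from 3.79 through 8.86 to 17.4 CPM in MctDio KO and from 2.87 through 4.18 to 6.05 CPM in WT. All 7 WTa libraries lay above all MMI, MctDio KO and WT libraries, and 1 MctOatp KO library, number 6, reached into the WTa range. WTa against WT gave the largest change of the set in any of the 8 comparisons, 2.46 ± 0.35 (adjusted p = 3.13e-05). MctOatp KO against WTa gave -1.65 ± 0.35 (adjusted p = 0.000621), and -0.71 (adjusted p = 0.257) with all libraries as labelled. In MctDio KO it rose by 1.15 ± 0.36 (adjusted p = 0.0204), a call lost without MctDio KO 6 (1.02, adjusted p = 0.0521) or MctDio KO 7 (0.93, adjusted p = 0.0642), and the MMI change was 0.81 (adjusted p = 0.0803).

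In cortex, where its level was higher, Zbtb16 stood at 29.9, 33.4, 36.1, 38.3 and 62.6 CPM in MctOatp KO and ran from 46.9 through 50.1 to 58.7 CPM in WTa, from 33.7 through 37.5 to 46.0 CPM in MMI, from 28.6 through 40.4 to 58.2 CPM in MctDio KO and from 23.4 through 30.5 to 37.2 CPM in WT. WTa again stood clear of WT (0.76 ± 0.16, adjusted p = 0.00336), while the MctOatp KO change was -0.39 (adjusted p = 0.0985) and became -0.61 (adjusted p = 0.0055) without MctOatp KO 6. The fall in MctOatp KO was deeper in striatum than in cortex by -1.28 ± 0.37 (adjusted p = 0.037), and this difference was 0.0074 (adjusted p = 0.997) with all libraries as labelled and -1.03 (adjusted p = 0.206) with cortex MctOatp KO 1 kept. The MctDio KO change in cortex was 0.47 (adjusted p = 0.0334), lost on leaving out any of 7 of 14 libraries, with adjusted p of up to 0.0923.

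Hif3a, an inhibitory relative of the hypoxia factors, was higher than WT in every other condition. Cortex values of Hif3a were 9.89, 10.5, 11.8, 11.8 and 23.9 CPM in MctOatp KO and ran from 18.6 through 19.7 to 21.6 CPM in WTa, from 19.8 through 21.8 to 34.4 CPM in MMI, from 11.3 through 17.2 to 20.4 CPM in MctDio KO and from 5.32 through 8.92 to 10.7 CPM in WT. Striatum values of Hif3a ran from 5.52 through 9.11 to 23.2 CPM in MctOatp KO, from 14.97 through 18.0 to 19.6 CPM in WTa, from 14.9 through 19.6 to 26.1 CPM in MMI, from 4.69 through 13.7 to 16.8 CPM in MctDio KO and from 4.89 through 6.30 to 8.43 CPM in WT. WTa and MMI lay above WT without overlap in both tissues, and MctDio KO did so in cortex. In cortex the log2 changes against WT were 1.16 ± 0.18 in WTa, 1.47 ± 0.18 in MMI and 0.94 ± 0.18 in MctDio KO, with adjusted p of 0.000209, 7.91e-08 and 0.000288. In striatum they were 1.42, 1.54 and 0.96, with adjusted p of 0.000161, 2.25e-06 and 0.00284.

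The direction of Hif3a in MctOatp KO depended on the control. Against WTa it was lower, by -0.54 ± 0.19 in cortex (adjusted p = 0.0382) and -0.72 ± 0.23 in striatum (adjusted p = 0.0221). Against WT it was higher, by 0.63 ± 0.20 in cortex (adjusted p = 0.0201) and 0.71 ± 0.25 in striatum (adjusted p = 0.032). MctOatp KO 6, at 23.9 and 23.2 CPM, was above every WTa library in both tissues. The call against WTa was lost on leaving out any of 9 of 12 libraries in cortex, with adjusted p of up to 0.127, and without MctOatp KO 1, 3 or 5 in striatum, with adjusted p of 0.0639, 0.0537 and 0.0657. With all libraries as labelled the striatum value was -0.53 (adjusted p = 0.0982).

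Klf15, a regulator of amino acid use that glucocorticoids induce directly, was higher than WT in WTa, MMI and MctDio KO in both tissues. The striatum level of Klf15 ran from 19.5 through 23.3 to 27.0 CPM in MctOatp KO, from 23.4 through 27.7 to 30.3 CPM in WTa, from 24.01 through 26.1 to 28.2 CPM in MMI, from 19.2 through 23.7 to 28.9 CPM in MctDio KO and from 16.5 through 18.6 to 20.8 CPM in WT. WTa and MMI lay above WT without overlap. The log2 changes against WT were 0.56 ± 0.08 in WTa, 0.51 ± 0.08 in MMI and 0.43 ± 0.08 in MctDio KO, with adjusted p of 3.48e-05, 6.18e-06 and 0.000186. In cortex Klf15 stood at 20.8, 20.8, 22.2, 25.8 and 28.5 CPM in MctOatp KO and ran from 23.6 to 34.6 CPM in WTa, 25.1 to 30.9 CPM in MMI, 21.0 to 30.0 CPM in MctDio KO and 15.4 to 23.1 CPM in WT. The changes there were 0.43, 0.47 and 0.29 in the same order, with adjusted p of 0.00182, 1.96e-05 and 0.011. MctOatp KO striatum was lower than WTa (-0.23, adjusted p = 0.0447, lost on leaving out any of 7 of 13 libraries, up to 0.127) and higher than WT (0.32, adjusted p = 0.00535).

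Bcl6, a repressor best known in lymphocytes and also present in cortical neurons, differed between the tissues. Striatum values of Bcl6 ran from 16.1 through 21.0 to 25.1 CPM in MctOatp KO, from 15.6 through 17.9 to 21.6 CPM in WTa, from 18.3 through 21.8 to 24.6 CPM in MMI, from 16.4 through 25.9 to 32.7 CPM in MctDio KO and from 13.1 through 14.6 to 21.0 CPM in WT. It rose there in MctDio KO by 0.62 ± 0.12 (adjusted p = 0.000132) and in MMI by 0.42 ± 0.12 (adjusted p = 0.00468). Cortex values of Bcl6 were 21.7, 26.8, 30.9, 32.4 and 33.5 CPM in MctOatp KO, and the other 4 groups ran between 25.9 and 36.9 CPM. The MctDio KO change was larger in striatum than in cortex by 0.53 ± 0.14 (adjusted p = 0.0142). In MctOatp KO cortex Bcl6 was lower than in WTa (-0.23, adjusted p = 0.04), a call lost on leaving out any of 8 of 12 libraries, with adjusted p of up to 0.221, and lost as labelled (adjusted p = 0.139). Cebpb, a factor of inflammatory and metabolic genes, rose in striatum in all 3 models, by 0.60, 0.42 and 0.57 in MctOatp KO, MMI and MctDio KO, with adjusted p of 0.00403, 0.03 and 0.00583. The MMI call was lost without WT 3, WT 6 or MMI 2, with adjusted p of 0.0572, 0.0507 and 0.0768. Its relative Cebpd was called in none of the 8 comparisons. Tmem189 overlaps Cebpb and Spidr overlaps Cebpd on the other strand.

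Txnip, which binds and inhibits thioredoxin and limits glucose uptake, rose in MMI. The transcript Gm15441 overlaps it on the other strand. Striatum values of Txnip ran from 15.7 through 24.6 to 31.8 CPM in MctOatp KO, from 21.3 through 26.4 to 32.2 CPM in WTa, from 39.4 through 45.8 to 54.8 CPM in MMI, from 28.3 through 36.5 to 41.8 CPM in MctDio KO and from 21.6 through 24.1 to 33.5 CPM in WT. Cortex values of Txnip were 12.1, 17.2, 17.9, 20.5 and 21.0 CPM in MctOatp KO and ran from 15.4 through 17.5 to 21.6 CPM in WTa, from 22.1 through 32.7 to 40.8 CPM in MMI, from 14.9 through 20.2 to 25.5 CPM in MctDio KO and from 13.4 through 16.8 to 22.9 CPM in WT. MMI lay above all WT libraries in striatum and overlapped WT slightly in cortex. The log2 change in MMI was 0.92 ± 0.13 in cortex (adjusted p = 1.26e-06) and 0.90 ± 0.12 in striatum (adjusted p = 1.8e-07). MctDio KO gave 0.27 (adjusted p = 0.162) in cortex and 0.47 (adjusted p = 0.00341) in striatum, and MctOatp KO against WTa gave 0.02 and -0.15, with adjusted p of 0.946 and 0.431. The change in MctOatp KO was lower than that in MMI by -0.90 in cortex and -1.05 in striatum, with adjusted p of 0.0091 and 0.000187.

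Arrdc2, an arrestin-domain relative of Txnip, fell in MctOatp KO and MMI. The cortex level of Arrdc2 was 5.73, 6.24, 7.10, 8.85 and 9.398 CPM in MctOatp KO and ran from 11.98 through 15.97 to 22.5 CPM in WTa, from 7.95 through 8.47 to 9.50 CPM in MMI, from 8.45 through 9.42 to 12.1 CPM in MctDio KO and from 10.1 through 12.1 to 13.2 CPM in WT. The striatum level of Arrdc2 ran from 9.38 through 13.8 to 17.6 CPM in MctOatp KO, from 23.2 through 26.3 to 43.0 CPM in WTa, from 8.74 through 12.6 to 15.6 CPM in MMI, from 10.4 through 14.0 to 24.5 CPM in MctDio KO and from 12.5 through 16.5 to 21.8 CPM in WT. MctOatp KO lay under WTa without overlap in both tissues, and MMI under WT in cortex. The log2 change in MctOatp KO was -1.09 ± 0.12 in cortex (adjusted p = 6.52e-09) and -1.09 ± 0.18 in striatum (adjusted p = 3.36e-05). Against WT it was -0.64 (adjusted p = 0.000102) in cortex and -0.38 (adjusted p = 0.134) in striatum. The MMI change was -0.46 ± 0.11 in cortex (adjusted p = 0.00104) and -0.48 ± 0.18 in striatum (adjusted p = 0.0286), the striatum call being lost on leaving out any of 5 of 14 libraries, with adjusted p of up to 0.0682. WTa was higher than WT by 0.44 and 0.72, with adjusted p of 0.00789 and 0.00583. Arrdc3, another member of that family, fell in MMI and MctDio KO in both tissues by 0.22 to 0.32 on the log2 scale, and in MctOatp KO striatum by 0.37 (adjusted p = 0.000116).

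**Figure D4:**
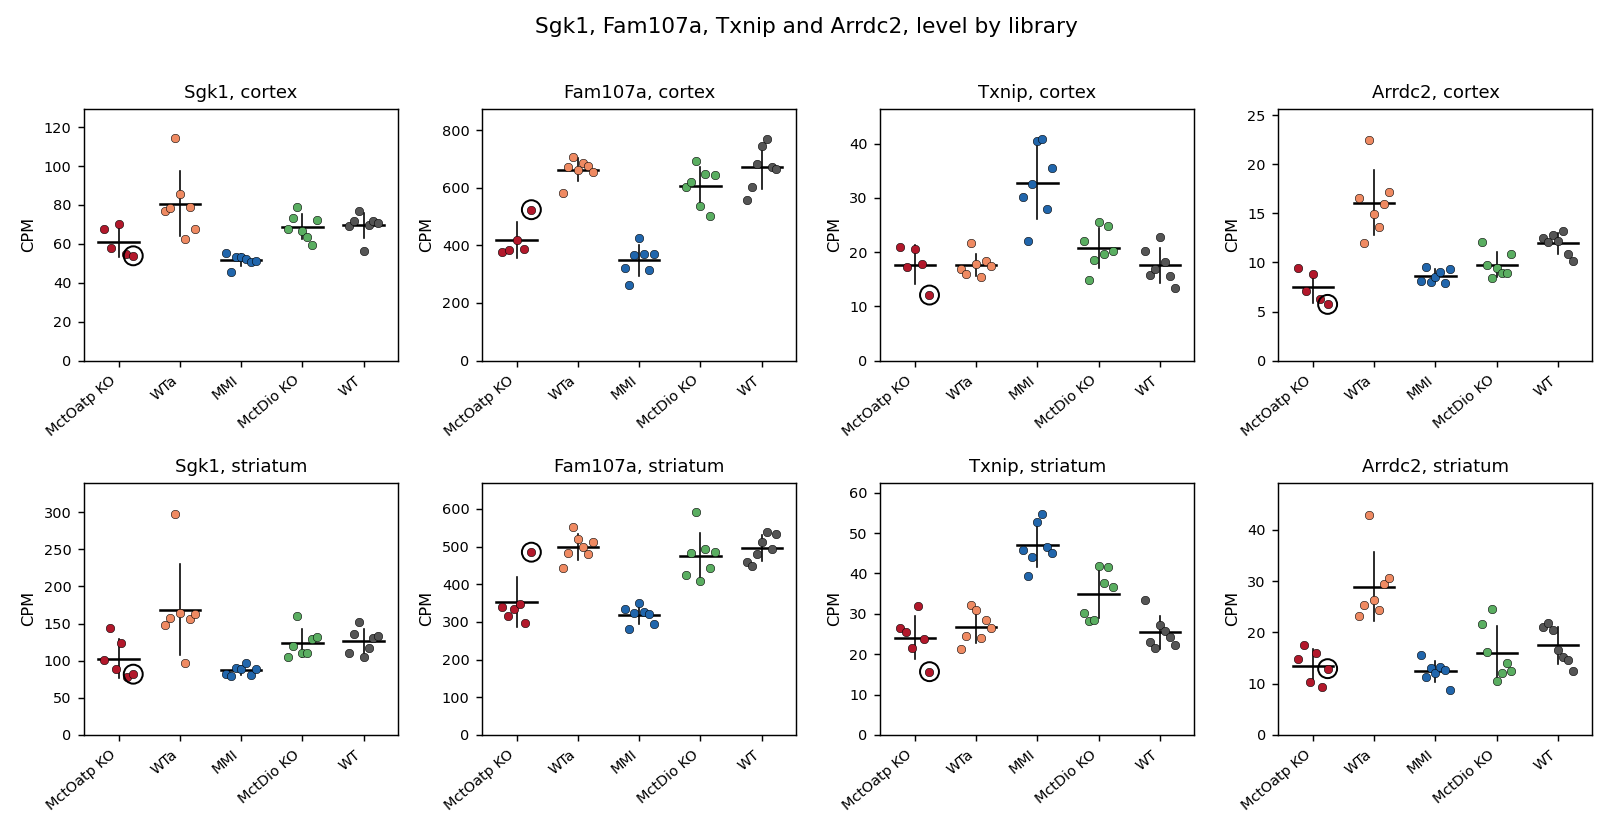
Levels in CPM of Sgk1, Fam107a, Txnip and Arrdc2, cortex above and striatum below, with libraries as points, the mean and 1 SD as lines and MctOatp KO 6 ringed. MMI lies above WT for Txnip, with a small overlap in cortex, and below WT without overlap for Sgk1 and Fam107a, and MctOatp KO lies under WTa for Arrdc2 with no overlap.

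Plin4, a coat protein of lipid droplets, was at low levels, with medians of 1.16 CPM in MctOatp KO cortex, 2.85 CPM in WTa cortex and 0.80 CPM in WT cortex. WTa was higher than WT by 1.66 ± 0.29 in cortex (adjusted p = 0.0005) and 1.65 ± 0.28 in striatum (adjusted p = 0.000185), without overlap in either. MMI cortex was higher by 1.15 (adjusted p = 0.00243), and MctOatp KO striatum was lower than WTa by -1.18 (adjusted p = 0.002). The gene overlaps Hdgfl2 on the other strand, which had 81273 counts over all libraries against 1801 for Plin4. Sult1a1, a sulfotransferase whose substrates include steroids and thyroid hormones, rose in MMI by 0.71 in cortex (adjusted p = 0.000458) and 0.84 in striatum (adjusted p = 3.32e-05). In striatum it was also higher in MctDio KO (0.51, adjusted p = 0.0157) and WTa (0.61, adjusted p = 0.0095) than in WT, and lower in MctOatp KO than in WTa (-0.60, adjusted p = 0.00661). It overlaps Sgf29 on the other strand. Phyhd1, an oxygenase of little-known function, rose in MMI and MctDio KO in both tissues, by 0.45 to 0.58 (the MMI cortex call was lost without WT 9, adjusted p = 0.0617), and Xdh, xanthine dehydrogenase, fell in cortex of MctOatp KO (-0.997, adjusted p = 0.00351) and MMI (-0.78, adjusted p = 0.0115) at levels under 1.6 CPM. Phyhd1 in striatum also stood higher in WTa, at 3.52 to 5.95 CPM, than in any WT library, at 2.08 to 3.45 CPM.

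The metallothioneins Mt1 and Mt2 bind zinc and copper and are induced by metals and glucocorticoids. Mt2 in cortex stood at 54.1, 54.8, 58.1, 66.4 and 75.7 CPM in MctOatp KO and ran from 78.7 through 85.4 to 118 CPM in WTa, from 49.6 through 62.0 to 65.3 CPM in MMI, from 59.2 through 70.8 to 81.3 CPM in MctDio KO and from 47.1 through 59.1 to 70.7 CPM in WT. In striatum it ran from 55.4 through 66.2 to 74.3 CPM in MctOatp KO, from 85.5 through 89.5 to 115 CPM in WTa, from 54.7 through 59.5 to 70.1 CPM in MMI, from 70.4 through 77.5 to 113 CPM in MctDio KO and from 51.3 through 61.3 to 86.1 CPM in WT. WTa lay above MctOatp KO without overlap in both tissues and above WT without overlap in cortex. Mt2 was higher in WTa than in WT by 0.67 ± 0.10 in cortex (adjusted p = 5.55e-05) and 0.55 ± 0.11 in striatum (adjusted p = 0.00106), and lower in MctOatp KO than in WTa by -0.57 ± 0.10 and -0.56 ± 0.11, with adjusted p of 9.83e-05 and 0.000304. In MctDio KO striatum Mt2 was also called higher than in WT, with means of 85.5 and 66.0 CPM. The MctDio KO change in cortex was not called (adjusted p = 0.0569), but was on leaving out any of 4 of 14 libraries (down to 0.0252). In cortex the call of Mt2 in MctOatp KO against WTa rests on leaving out MctOatp KO 1, which held 271 CPM of Mt2 and 739.99 CPM of Mt1. With that library alone put back, the MctOatp KO change of Mt2 was 0.032 (adjusted p = 0.945). With all libraries as labelled, which also puts back MctOatp KO 7, it was -0.06 (adjusted p = 0.902). Mt1 in MctOatp KO cortex was -0.40 (adjusted p = 0.00119) without these libraries, 0.37 (adjusted p = 0.352) with MctOatp KO 1 alone put back and 0.27 (adjusted p = 0.53) as labelled, a turn of sign, and Mt1 was called in no other of the 8 comparisons. Cdkn1a, the cell-cycle inhibitor p21, fell in MctOatp KO cortex (-0.57, adjusted p = 0.000455) and rose in MctDio KO striatum (0.31, adjusted p = 0.00699). In MMI it was -0.29 in cortex (adjusted p = 0.0282, lost without WT 1, WT 4, WT 7 or MMI 6, up to 0.071) and 0.25 in striatum (adjusted p = 0.0188), and that difference between tissues was itself called (0.53 ± 0.14, adjusted p = 0.00784). Bcl2l1, a survival factor, was higher in WTa than in WT by 0.16 in cortex and 0.18 in striatum, with adjusted p of 0.0184 and 0.00298, and lower in MctOatp KO than in WTa striatum by -0.22. It was also called higher in MctDio KO than in WT cortex, with means of 118.8 and 108.6 CPM.

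Each value of MctOatp KO rests on the choice of control, since WTa and WT differed as given above. With WT in place of WTa as the control, an alternative chosen after seeing the data, MctOatp KO had 7 called genes in cortex, 2 higher and 5 lower, beside 23.3% of all tested genes (10.8% higher, 12.6% lower), and 12 in striatum, 5 higher and 7 lower, beside 27.5% (13.2% higher, 14.3% lower). The 7 of 31 in cortex is a share close to that over all genes. Hsd11b1, Sgk3, Fam107a, Ehd3, Cdkn1a and Arrdc2 in cortex, and Hsd11b1, Errfi1, Ddit4, Fam107a, Ehd3, Cebpb and Arrdc3 in striatum, were called in the same direction against both controls. Of the genes called against WTa, 5 in cortex (Fkbp5, Map3k6, Hif3a, Plin4 and Mt2) and 6 in striatum (Zbtb16, Hif3a, Klf15, Plin4, Sult1a1 and Phyhd1) had the other sign against WT, and of these Hif3a in both tissues and Klf15 in striatum were called with that other sign. Nr3c1, not called against WTa, was lower than in WT in striatum (-0.17, adjusted p = 0.022). The calls against WTa of Plin4 in cortex (-0.88) and Phyhd1 in striatum (-0.45) were lost on leaving out any of 6 of 12 and 7 of 13 libraries, with adjusted p of up to 0.0831 and 0.123, and that of Phyhd1 also as labelled (-0.31, adjusted p = 0.18). Hsd11b1 against WT gave -1.49 in cortex and -1.70 in striatum, with adjusted p of 8.82e-16 and 7.75e-12.

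Within the set, libraries with one number stood out in both tissues. Among libraries of MctOatp KO, number 6 was the highest for 14 of the 31 genes in cortex and 12 in striatum, among them Fkbp5, Map3k6, Fam107a, Zbtb16, Hif3a, Plin4, Sult1a1 and Phyhd1 in both, and it was the lowest for Nr3c1, Nr3c2 and Txnip in both. Leaving it out raised the count of called genes in MctOatp KO against WTa to 22 in cortex and 21 in striatum, beside 20.5% and 23.2% of all tested genes, against 21.7% and 25.1% with it kept. MctOatp KO 6 also had the largest share of counts on no gene among the kept libraries of each tissue, 11.7% in cortex and 11.8% in striatum. WTa 3 was the highest of its group for 15 of the 31 genes in cortex and 16 in striatum. How often MctOatp KO 6 or WTa 3 was the highest over all tested genes was not counted. With any 1 library left out, WTa against WT gave 11 to 13 called genes in cortex and 14 to 15 in striatum. Over all tested genes the numbers were 770 to 1121 and 1320 to 1714. The labels do not say that a number names the same animal in both tissues.

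The models were also set against each other. MctDio KO differed from MMI in 8 genes in cortex, 5 higher and 3 lower, beside 11% of all tested genes (5.7% higher, 5.29% lower), and in 7 in striatum, 5 higher and 2 lower, beside 12.3% (6.8% higher, 5.49% lower). Higher in both were Hsd11b1, Fam107a and Sgk1 (0.42 in cortex with adjusted p = 0.00163, 0.51 in striatum with adjusted p = 0.0331), and lower in both were Txnip (-0.65 with adjusted p = 0.000908, -0.42 with adjusted p = 0.0123) and Edn1 (-0.67 with adjusted p = 0.012, -0.64 with adjusted p = 0.0316). The MctOatp KO change differed from the MMI change in 13 genes in cortex, 2 higher and 11 lower, beside 3.23% of all tested genes (1.44% higher, 1.78% lower), and in 15 in striatum, 2 higher and 13 lower, beside 6.69% (3.9% higher, 2.79% lower). It differed from the MctDio KO change in 16 genes in cortex, 2 higher and 14 lower, beside 1.74% of all tested genes (0.664% higher, 1.08% lower), and in 19 in striatum, 2 higher and 17 lower, beside 3.45% (1.86% higher, 1.59% lower). For Tsc22d3 the difference from the MctDio KO change was -0.93 in cortex and -1.21 in striatum, with adjusted p of 0.00141 and 1.48e-06. These differences contain the gap between WTa and WT described above.

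Between tissues few changes differed. For MMI 2 of 31 genes did (Cdkn1a and Hsd11b1), beside 7.72% of all tested genes (3.36% higher, 4.36% lower), for MctDio KO 1 did (Bcl6), beside 4.09% (1.99% higher, 2.1% lower), and for MctOatp KO 2 did (Zbtb16, and Errfi1 by -0.41, adjusted p = 0.0146), beside 2.96% (1.37% higher, 1.59% lower). With all libraries as labelled none of these 5 differences was called, with adjusted p from 0.0886 to 0.997. The MMI and MctDio KO differences hold none of the libraries put back, which enter them only through the shared fit. The levels themselves differed more. Between striatum and cortex of the untreated mice, the mean of WTa and WT, 18 genes differed, 9 higher and 9 lower in striatum, beside 70% of all tested genes (36.8% higher, 33.2% lower). Higher in striatum were among others Arrdc3 (1.06), Sgk3 (1.04), Sgk1 (0.96) and Fkbp5 (0.63), and lower were Zbtb16 (-1.96), Hsd11b1 (-1.16), Bcl6 (-0.94) and Cdkn1a (-0.81), with adjusted p of at most 5.3e-08 for these 8. Per kilobase of exon, the highest median levels in WT cortex were those of Fam107a at 173 CPM per kb, Mt1 at 124 and Mt2 at 100.5. The glucocorticoid receptor stood at 16.3 CPM per kb and the mineralocorticoid receptor at 5.03 in WT cortex, and at 14.9 and 7.53 in WT striatum.

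Other genes of the pathway were counted from lists of related genes, and their counts stand beside shares over all tested genes. In MctOatp KO these were 10.1% higher and 11.6% lower in cortex and 12.1% and 13% in striatum. In MMI they were 19.9% and 20% in cortex and 19% and 19.7% in striatum, in MctDio KO 11.1% and 11.8% in cortex and 10.5% and 11.1% in striatum, and in WTa 2.88% and 3.83% in cortex and 5.2% and 5.84% in striatum. Among 12 receptor chaperones and co-chaperones, 8 fell in MMI in each tissue and none rose, with Stip1 at -0.40 (adjusted p = 2.25e-07) and Fkbp4, the co-chaperone that favours transport of the receptor to the nucleus, at -0.42 (adjusted p = 1.38e-06) in cortex. Of the same 12, 3 fell in MctOatp KO cortex and 7 in MctOatp KO striatum, where Fkbp4 was at -0.34 (adjusted p = 0.000217), and 4 and 1 fell in MctDio KO cortex and striatum. In WTa against WT, 0 were called in cortex and 1 was higher in striatum, Ppid at 0.24 (adjusted p = 0.00562). Among 11 coregulators no more than 5 were called in any of these comparisons, the changes named here being Smarca4 at -0.23 in both MMI and MctOatp KO cortex, with adjusted p of 0.000336 and 0.00267, and Nrip1 at -0.62 in MctOatp KO striatum (adjusted p = 1.49e-06).

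Of 8 tested genes of steroid access and metabolism, Cyp11a1, which makes pregnenolone from cholesterol, and Srd5a1, the 5-alpha reductase, fell in all 3 models in both tissues. Cyp11a1 changed by -1.91 in MctOatp KO, -2.27 in MMI and -1.60 in MctDio KO in cortex, with adjusted p of 4.84e-11, 2.53e-14 and 2.52e-10, and by -2.49, -2.66 and -1.59 in striatum, with adjusted p of 1.83e-10, 4.82e-11 and 7.15e-07. Srd5a1 changed by -1.03, -1.04 and -0.77 in striatum, with adjusted p of 1.66e-13, 4.36e-15 and 2.63e-11. Of 5 tested genes of the stress axis, 1 rose and 1 fell in cortex in each of the 3 models. In striatum 1 rose in MctDio KO and none was called in MMI or MctOatp KO. The gene that fell in cortex was Crh, the hypothalamic releasing hormone that cortical interneurons also make. It fell by 1.14 in MMI (adjusted p = 4.83e-08), by 0.43 in MctDio KO (adjusted p = 0.0218) and by 0.41 in MctOatp KO (adjusted p = 0.0449). No gene of that list was called in WTa against WT. Of 6 tested inflammatory genes that glucocorticoids repress, 2 rose and 1 fell in MMI cortex, and 2 rose in MMI striatum. In MctDio KO and MctOatp KO only 1 of the 6 was called in each tissue, and it rose. Vcam1, an adhesion molecule of vessels, rose in all 3 models in both tissues. Its change was 0.69 in MMI cortex (adjusted p = 1.47e-07) and 0.29 to 0.43 in the others. None of the 6 was called in WTa against WT.

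Of 13 further genes that glucocorticoids induce, 4 were higher and 1 lower in WTa than in WT in each tissue. Mertk, a receptor for clearing dead cells, was higher by 0.49 in cortex (adjusted p = 0.000324) and 0.57 in striatum (adjusted p = 0.000327), Angptl4, a lipase inhibitor, was higher by 0.81 in cortex (adjusted p = 0.00171), and Dusp1, a phosphatase also induced by neuronal activity, was lower by -1.09 in cortex (adjusted p = 0.00773). In MMI 3 were higher and 3 lower in cortex and 6 higher and 3 lower in striatum, in MctDio KO 4 higher and 2 lower and 6 higher and 3 lower, and in MctOatp KO 1 higher and 4 lower in each tissue. The 6 of 13 called in MMI cortex stand beside 40% of all tested genes there, a share close to theirs. Klf9, which thyroid hormone and glucocorticoids both induce, fell in all 3 models, by 0.73, 0.70 and 0.41 in cortex of MctOatp KO, MMI and MctDio KO, with adjusted p of 3.62e-08, 4e-09 and 0.000122.

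Some other gene groups moved along with these comparisons, and their part in the results was not tested. The shares over all genes given for the pathway lists hold for these counts too. Of 11 immediate early genes of neuronal activity, 10 were lower in WTa than in WT in each tissue and none was higher, with medians over the list of -1.04 in cortex and -1.02 in striatum. Their summed level was 427.5 to 828.7 CPM in WTa cortex and 704 to 1686 CPM in WT cortex. In MctOatp KO against WTa, 4 of these rose in cortex, 5 rose in striatum and none fell. For MMI against WT, 4 fell in cortex, 3 fell in striatum and none rose, with medians of -0.48 and -0.43. For MctDio KO none was called in cortex, and in striatum 1 rose and none fell. Of 11 clock genes 0 were called in WTa against WT in either tissue by edgeR's test. In MMI 4 of these rose and 1 fell in each tissue, and in MctDio KO 3 rose in each and none fell. For MctOatp KO 2 rose in cortex and 3 in striatum, and 1 fell in each. Endothelial markers were lower in WTa than in WT, 4 of 11 in cortex and 7 of the 11 in striatum, with summed levels of 225 to 255 CPM in WTa cortex, against 230 to 364 CPM in WT cortex, and of 206 to 239 CPM in WTa striatum, against 198 to 320 CPM in WT striatum. In MMI 4 of the 11 rose and 1 fell in cortex, and 5 rose and 1 fell in striatum. In MctDio KO 2 fell in cortex and 4 in striatum, in MctOatp KO 2 and 1 fell, and none rose. Mural markers rose in MMI, 6 of 8 in cortex and 5 in striatum. In MctOatp KO 4 of the 8 rose and none fell in striatum, and 1 rose and 1 fell in cortex. In MctDio KO 3 fell and none rose in striatum, and none was called in cortex. In WTa against WT 4 of the 8 fell in cortex, 3 fell in striatum and 1 rose in each.

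Mature oligodendrocyte markers fell in every model, 9 of 9 in cortex in each of the 3, and in striatum 9 in MctOatp KO, 5 in MMI and 9 in MctDio KO. Their summed level in cortex was 5162 to 6499 CPM in MctOatp KO and 8207 to 9706 CPM in WTa. Of the 9, 1 was lower in WTa than in WT in each tissue. Microglia markers rose in MMI, 6 of 8 in cortex and 7 in striatum, and in MctDio KO, 7 in cortex and 5 in striatum, with none lower. Their summed level in cortex was 490.3 to 581.6 CPM in MMI, 431.5 to 542.8 CPM in MctDio KO and 380.8 to 515.1 CPM in WT. In MctOatp KO 1 of the 8 fell in cortex and 3 rose in striatum. Markers of striatal medium spiny neurons fell in striatum, 7 of 7 in MMI, 6 in MctDio KO and 4 in MctOatp KO, where 1 rose. Their sum there was 3554 to 4497 CPM in MMI, 4024 to 5061 CPM in MctDio KO and 5491 to 7428 CPM in WT. Erythroid markers fell in MMI (6 of 6 tested in cortex, 5 of 5 in striatum), with summed levels of 51.8 to 67.2 CPM in MMI cortex and 117 to 242 CPM in WT cortex, and 5 of 6 fell in MctOatp KO cortex. Markers of neutrophils, which hold much Lcn2, were at or near 0, with a sum of at most 2.03 CPM over 8 genes in any kept library and Ly6g at 0 in all.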

How the data were processed

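RNA of cortex and striatum was sequenced in 70 libraries, and 1 table of gene counts per library was used. Per the submitters' processing notes, the authors used CASAVA, FastQC, TopHat with Bowtie, HTSeq and edgeR with build GRCm38, and no source used here gives versions. What the authors deposited are unnormalized counts of reads for each Ensembl gene, so low levels are limited by depth. The 5 closing lines of each table that name no gene were kept out of library sizes. Symbols came from GENCODE vM21. The 32 genes and all other lists were chosen with earlier results of these data known.

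Counts were scaled by TMM, filtered with filterByExpr and tested with edgeR 4.0.16's quasi-likelihood test in R 4.3.3, separately in cortex and striatum (all groups in 1 fit), and over both tissues for tissue differences. A call is a Benjamini-Hochberg adjusted p under 0.05 over all genes tested. SE is that of the log2 change. Levels (CPM) are counts scaled by TMM library size. The 3 libraries named in the report were left out by placement on tissue genes and by the share of non-unique alignments. The labels do not say that libraries come from separate litters, so p-values measure the spread between these libraries. The kit did not keep strand. No 2 libraries of a group agreed within sampling noise. On simulated counts the cortex fit recovered 79% of genes changed by 0.5 and 97% of those changed by 1 on the log2 scale. Genes given with per-library values are Nr3c1, Nr3c2, Hsd11b1, Fkbp5, Tsc22d3 and Sgk1, and up to 4 genes of the set with the smallest p among those called in each comparison of a model with its control and of WTa with WT. Alternatives were DESeq2 1.42.0, other scaling, no filter, all libraries as labelled, each library left out and a replicate block. The target shared by both knockout lines is not reported here.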

Additional observations from a re-analysis of the deposited data

Results flagged for a closer look

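Of 160 groups of 5 to 7 libraries checked for a lone high or low library, 20 had one. The rule behind this gives about 1 in 20 groups by chance where groups are independent, and these share libraries, so the number was not tested against it. MctOatp KO 6 was such a library for Fkbp5 (59.9 CPM in cortex, 70.1 CPM in striatum), Hif3a (23.9 and 23.2 CPM) and Zbtb16 (62.6 and 22.7 CPM) in both tissues, and for Hsd11b1 (5.04 CPM) and Fam107a (485 CPM) in striatum. In each it was the highest of its group. WTa 3 was the highest of its group for Tsc22d3 in cortex (169.9 CPM) and for Sgk1 (298 CPM) and Arrdc2 (43.0 CPM) in striatum.

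The other high libraries were MctDio KO 1 for Hsd11b1 in striatum (15.7 CPM), WTa 6 and WT 1 for Map3k6 in striatum (6.02 and 2.79 CPM), MMI 1 for Mt2 in striatum (70.1 CPM) and WT 3 for Nr3c2 in cortex (47.9 CPM). The low ones were MctDio KO 4 for Hif3a in striatum (4.69 CPM), WTa 1 for Fam107a (582 CPM), WT 6 for Sgk1 (56.4 CPM) and WT 1 for Klf15 (15.4 CPM), the last 3 in cortex.

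Tests of the difference between tissues, striatum change minus cortex change, were passed by Hsd11b1 (-0.53) and Cdkn1a (0.53) for MMI, Bcl6 (0.53) for MctDio KO, and Errfi1 (-0.41) and Zbtb16 (-1.28) for MctOatp KO, on the log2 scale. Cortex MctOatp KO 1, left out of the fits, lay above every WTa cortex library for Tsc22d3 (200.4 CPM), Txnip (38.2 CPM), Mt2 (271 CPM) and Bcl6 (40.6 CPM).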

How the results depend on the processing

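Leaving out each library in turn kept the count of called genes of the set in cortex at 14 to 22 for MctOatp KO against WTa, 11 to 13 for WTa against WT, 16 to 17 for MMI, 9 to 12 for MctDio KO, 6 to 9 for MctDio KO against MMI, 11 to 16 for the MctOatp KO against the MMI change and 10 to 19 against the MctDio KO change. In striatum the ranges were 16 to 21, 14 to 15, 15 to 17, 13 to 18, 4 to 10, 12 to 16 and 16 to 19 in the same order. Over all tested genes in cortex, the called numbers were 2936 to 3455, 770 to 1121, 6021 to 6630 and 3220 to 3852. For the last 3 comparisons they were 1378 to 2173, 305 to 818 and 179 to 552. In striatum they were 3458 to 4026, 1320 to 1714, 5862 to 6328 and 3143 to 3601, then 1492 to 2255, 807 to 1311 and 369 to 730. With every library as labelled the counts became 11 for MctOatp KO, 6 for WTa against WT, 6 for MctDio KO, 5 for MctDio KO against MMI, and 6 and 7 for the change of MctOatp KO against those of MMI and MctDio KO in cortex, and 4, 9 and 11 for the last 3 in striatum; the tissue differences of MMI and MctDio KO then had 0 by edgeR. Keeping only cortex MctOatp KO 1 gave 7 for WTa against WT, 6 and 7 for the MctOatp KO change against the others, and 1 and 0 for the tissue differences of MMI and MctOatp KO. With WT as the control, chosen after seeing the data, MctOatp KO had 7 in cortex and 12 in striatum. Without the low-count filter the tissue difference of MctOatp KO had 1. As labelled, the shares over all tested genes in cortex were 12.8%, 0.994%, 7.54%, 3.19%, 1.02% and 0.815% in the order given. In striatum the last 3 were 7.45%, 3.45% and 1.14%, and the 2 tissue differences had 2.49% and 1.12%. With cortex MctOatp KO 1 kept the shares were 1.8%, 1.59% and 0.975%, then 4.97% and 2.55%. Comparisons without MctOatp KO hold none of the libraries put back, which enter them only through the shared fit.

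Among genes called against WTa or against WT, signs turned against WT for Plin4 (0.79), Hif3a (0.63), Fkbp5 (0.31), Map3k6 (0.28) and Mt2 (0.10) in cortex and Plin4 (0.47), Hif3a (0.71), Nr3c1 (-0.17), Klf15 (0.32), Sult1a1 (0.011), Zbtb16 (0.81) and Phyhd1 (0.15) in striatum. As labelled, Mt1 turned to 0.27 against WTa and 0.18 against the MctDio KO change, and the tissue difference of Zbtb16 to 0.0074; with cortex MctOatp KO 1 kept, Mt1 turned to 0.37 and 0.28 and Mt2 to 0.032. The cause was not tested. Between tissues, same-numbered libraries of a condition correlated over 0.1 in 23 of 33 pairs (median 0.14) and others in 20 of 193 (median -0.03), a hint from the data that numbers pair the tissues. Not every pair passed 0.1 and the labels do not name animals, so the pairing stayed an alternative. Within a tissue 15 of 112 same-numbered pairs passed 0.1. A replicate block by number gave 4, 3 and 4 called genes for the tissue differences of MMI, MctDio KO and MctOatp KO. The shares over all genes under that block are not given here, so these counts cannot be set against them.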
